A study of Homo sapiens with 18 samples.

Results

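The 9 genes described here encode the class I antigen presentation machinery: the heavy chains HLA-B, HLA-C, HLA-E and HLA-F, the light chain B2M, the peptide transporter subunits TAP1 and TAP2, and the immunoproteasome subunits PSMB8 and PSMB9. They were chosen by name for their roles, with earlier results of these data known. All 9 were found among the 22136 genes of the 2-day count table and the 21276 genes of the 7-day count table. The libraries were made from polyadenylated RNA of C4-2B, a human prostate cancer cell line with the genotype given as WT, so that all groups come from 1 line. The 18 libraries form 6 groups of 3. DMSO vehicle (VEH) and 0.1 µM VIC-1911 (VIC), an inhibitor of the mitotic kinase AURKA, were sequenced after 2 days. After 7 days the groups were DMSO vehicle, 0.1 µM VIC-1911, 1 µM olaparib (OLA), an inhibitor of PARP, and both drugs at these doses (COMBO). The labels do not say whether libraries of a group came from separate cultures, so p-values measure the spread between these libraries, which may be technical.

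Class I molecules display peptides from inside the cell to CD8 T cells. Proteins are cut by the proteasome, whose constitutive catalytic subunits can be exchanged for the immunoproteasome subunits PSMB8, PSMB9 and PSMB10. The peptides are carried into the endoplasmic reticulum by the TAP1 and TAP2 heterodimer and loaded there onto a heavy chain paired with B2M. These genes are known to be raised by interferons through factors such as IRF1 and to be driven by the transactivator NLRC5 with the RFX and NF-Y factors, and their loss is known in many tumors, prostate cancer included.

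Of the 9 genes, 8 lie on chromosome 6 in the major histocompatibility complex and B2M lies on chromosome 15. In GRCh38.p14 coordinates HLA-B spans chr6:31353875-31357179, HLA-C chr6:31268749-31272092, HLA-E chr6:30489509-30494194, HLA-F chr6:29723434-29738532 and B2M chr15:44711517-44718145. The transporter and immunoproteasome genes lie side by side, with TAP2 at chr6:32821831-32838739, PSMB8 at chr6:32840717-32844679, TAP1 at chr6:32845209-32853704 and PSMB9 at chr6:32854192-32859851. TAP1 and PSMB9 are transcribed head to head from start sites 488 bases apart. The heavy chains are close copies of each other, and neither the strand setting of the counting nor the treatment of reads shared between genes is given in the sources used here, so their counts are uncertain. Overlapping transcripts add to this for HLA-F, which shares 11932 bases with HLA-F-AS1 and 558 with RPL23AP1, and for TAP1 and PSMB8, which share 1292 and 594 bases with PSMB8-AS1. The overlaps of HLA-B with MIR6891 and of B2M with MIR10393 are 93 and 50 bases.

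The promoters of 5 members are printed because these genes moved in different directions below: B2M and TAP1 upward, HLA-B, HLA-C and TAP2 downward. The sequences are the 250 bases before the start site, from RefSeq (GRCh38.p14), and an entry was found for 8 of the 9 members, HLA-E being the exception. The windows are B2M chr15:44711267-44711516 (plus strand), HLA-B chr6:31357180-31357429, HLA-C chr6:31272093-31272342, TAP1 chr6:32853705-32853954 and TAP2 chr6:32838740-32838989 (all 4 on the minus strand), each written along its gene. Capitals mark matches on either strand to the interferon-stimulated response element (GAAA, any 2 bases, GAAA), its core AANNGAAA, the NF-kB site, the CCAAT box and the cyclic AMP response motif TGACG. Each match to the whole element holds a match to the core, and matches may overlap.
B2M: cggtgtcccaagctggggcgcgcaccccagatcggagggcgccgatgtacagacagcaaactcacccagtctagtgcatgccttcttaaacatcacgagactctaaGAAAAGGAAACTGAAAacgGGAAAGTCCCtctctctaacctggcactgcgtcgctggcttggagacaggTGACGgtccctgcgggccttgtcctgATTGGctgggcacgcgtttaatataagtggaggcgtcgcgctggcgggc
HLA-B: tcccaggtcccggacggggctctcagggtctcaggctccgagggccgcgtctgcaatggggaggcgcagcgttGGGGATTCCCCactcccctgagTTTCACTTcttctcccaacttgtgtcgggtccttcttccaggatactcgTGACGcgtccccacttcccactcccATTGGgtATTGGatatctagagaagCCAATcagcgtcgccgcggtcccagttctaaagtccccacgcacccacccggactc
HLA-C: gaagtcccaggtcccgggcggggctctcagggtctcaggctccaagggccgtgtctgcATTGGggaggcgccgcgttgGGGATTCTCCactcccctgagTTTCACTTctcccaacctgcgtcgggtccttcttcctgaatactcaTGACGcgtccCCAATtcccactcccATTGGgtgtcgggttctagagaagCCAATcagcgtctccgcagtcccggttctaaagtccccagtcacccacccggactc
TAP1: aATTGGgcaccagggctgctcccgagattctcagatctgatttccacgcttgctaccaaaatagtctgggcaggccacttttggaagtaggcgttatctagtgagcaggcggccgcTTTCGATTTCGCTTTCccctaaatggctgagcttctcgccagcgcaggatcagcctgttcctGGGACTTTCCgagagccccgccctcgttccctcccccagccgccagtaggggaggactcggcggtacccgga
TAP2: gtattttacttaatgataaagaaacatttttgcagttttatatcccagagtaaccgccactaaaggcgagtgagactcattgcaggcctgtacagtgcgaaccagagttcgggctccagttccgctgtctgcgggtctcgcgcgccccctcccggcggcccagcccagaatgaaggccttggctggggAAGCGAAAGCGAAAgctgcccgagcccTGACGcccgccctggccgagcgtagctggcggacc

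The whole interferon element was found in B2M (2 matches), TAP1 (2 matches), TAP2 (1 match) and HLA-F (1 match), against 3.02% of 35116 promoters of the same length. The HLA-B and HLA-C windows held only the shorter core, which 20.3% of promoters hold. An NF-kB match was present in B2M, HLA-B, HLA-C and TAP1, against 5.21% of promoters. CCAAT boxes (32% of promoters) were present in B2M, HLA-B, HLA-C, HLA-F, TAP1 and PSMB9, and TGACG (21.2%) in B2M, HLA-B, HLA-C, TAP2, PSMB8 and PSMB9. TAP1 and PSMB8 each had a further promoter entry at another start site, and neither of these held a match to any of the motifs. Every entry counts among the 35116 promoters. The HLA-B and HLA-C windows were 89% identical, and HLA-F was 79.8% and 78.2% identical to them. The whole element was thus present both in members that rose (B2M, TAP1) and in members that fell (TAP2, HLA-F) below. These matches describe letters only.

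Between 3245273 and 7184420 reads per library were counted on genes after 2 days and between 4967931 and 19684208 after 7 days. All 10 prostate luminal markers (such as KLK3, which encodes PSA) were detected above a mean of 1 FPKM in every group, and none of 10 immune cell markers was, with summed values of 0.791 to 1.29 FPKM per library. Of the immune list, CD8A reached the highest count (44 in 1 library) and was the 1 gene tested, with changes against vehicle that did not pass (log2 -0.90 after 2 days, edgeR, adjusted p = 0.123, and -0.37 to -0.40 after 7 days), whereas PTPRC had at most 2 counts. CD3E had 0 counts at 2 days, and at 7 days, where the count table has no row for it, it is listed at 0 FPKM in every library. Summed FPKM of 10 fibroblast and endothelial markers were between 1.84 and 2.87, and 1 of them, COL1A1, had a mean above 1 FPKM in every group. In that list COL1A1 reached 310 counts, VWF 149, PDGFRB 42 and COL3A1 23, and the others at most 1, of which CDH5 and DCN likewise have no row of 7-day counts and are listed at 0 FPKM. Of its 4 genes tested at 7 days, PDGFRB was higher with VIC-1911 (0.73), COL1A1 (0.28) and PDGFRB (0.67) were higher and VWF (-1.19) lower with olaparib, and COL1A1 (0.43) and COL3A1 (1.28) were higher and VWF (-1.22) lower with the combination. After 2 days COL1A1 was lower (-0.49). The part of these genes in the results below was not tested. The luminal markers themselves moved with treatment: their sum was 4450 to 4480 FPKM in the 7-day vehicle libraries, 3190 to 3360 with VIC-1911, 2970 to 3090 with olaparib and 2940 to 3090 with the combination. The part of this shift in the results for the class I genes was not tested, and in bulk RNA fewer cells of a kind and less RNA per cell cannot be told apart. The library names number the 7-day vehicle libraries consecutively with those of VIC-1911, and the libraries with olaparib, alone or combined, as a separate run. What these blocks stand for is not stated, and in comparisons across them block and drug cannot be told apart.

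The levels below are CPM, library-scaled counts normalized by TMM, and FPKM values were not used to compare members. The 7-day FPKM followed the counts for all 10206 genes compared, within a relative 0.001. The gene length that they imply was unusual, however, for the members on chromosome 6 and, to a lesser degree, for B2M. Relative to the median gene, the length behind the FPKM per base of the main annotated transcript was 6.03 for HLA-B, 7.04 for HLA-C, 9.2 for TAP1 and 8.56 for TAP2, and 2.06 for B2M. The 75 genes compared in the 5-megabase window of chromosome 6 that holds the members of that chromosome had a median of 6.99, whereas the other 10131 genes had a median of 0.999. B2M, at 2.06, lay above the 95th percentile of those other genes (1.58). FPKM of the chromosome 6 members were thus several times lower than their counts per base of transcript. GRCh38 carries alternate copies of this region, and their part in the lengths and in the counts was not tested.

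**Figure D1:**
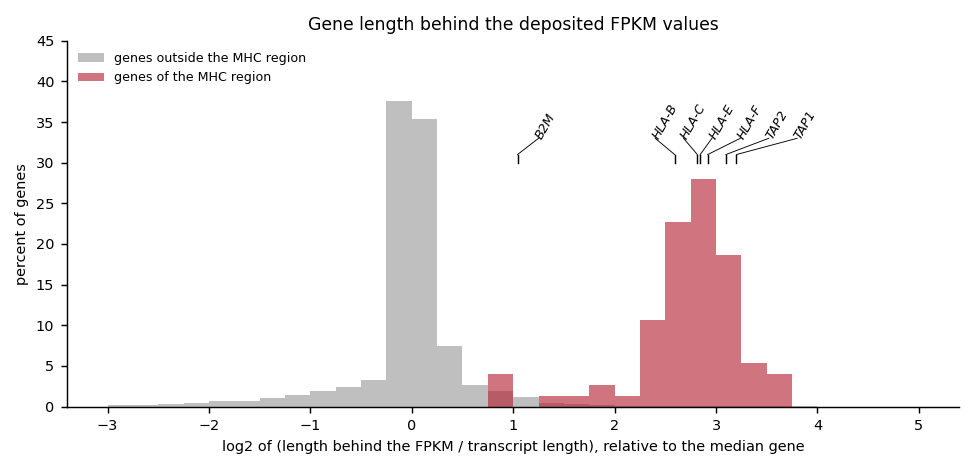
Gene length behind the 7-day FPKM values divided by transcript length, relative to the median gene (log2 axis), as the percent of genes in each bin, for 75 genes of the MHC region (red) and 10131 other genes (grey). Ticks mark members. The MHC region peaks near its median of 6.99 on the linear scale, and B2M stands apart at 2.06.

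Per kilobase of transcript, the order in the 7-day vehicle was HLA-C (217 ± 17.8 CPM per kb, SD, n = 3), B2M (104 ± 5.67), HLA-B (68.0 ± 4.75), HLA-E (24.6 ± 1.35), TAP2 (14.5 ± 1.52), TAP1 (10.2 ± 1.81), HLA-F (5.98 ± 1.27), PSMB8 (0.575 ± 0.191) and PSMB9 (0.0825 ± 0.0721). In this group no neighbours in the order overlapped within their SD. With the combination B2M was at 161 ± 10.4 and HLA-C at 196 ± 15.1 CPM per kb, and TAP1 (15 ± 1.02) stood above TAP2 (7.63 ± 0.444). With VIC-1911 at 7 days TAP1 (11.1 ± 0.549) and TAP2 (11 ± 0.597) did not differ beyond their spread. The 2-day table was counted separately. There HLA-C (159 ± 9.43 CPM per kb) and B2M (143 ± 7.84) were close in the vehicle, and B2M (171 ± 6.21) stood above HLA-C (152 ± 5.64) with VIC-1911.

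The quasi-likelihood test of edgeR was run on genes that reached 10 counts in 3 or more libraries, and a gene was called at an adjusted p under 0.05 over all genes. After 2 days 7 members were tested: B2M was called higher and TAP2 lower with VIC-1911, against 7.5% of all tested genes called higher and 7.19% called lower. After 7 days 8 members were tested. VIC-1911 had 1 member higher (B2M) and 5 lower (HLA-B, HLA-C, HLA-E, HLA-F and TAP2), with 26.7% of all genes higher and 25.7% lower. Olaparib had 2 higher (B2M and TAP1) and 4 lower (HLA-B, HLA-C, HLA-E and TAP2), with 28.1% and 25.9% of all genes. The combination had 3 higher (B2M, TAP1 and PSMB8) and 3 lower (HLA-B, HLA-C and TAP2), with 28.6% and 28% of all genes. The share of members called lower with VIC-1911 was above the background and the other shares were closer to it. The median change over the tested members was -0.28 with VIC-1911, -0.26 with olaparib and -0.14 with the combination (log2), and that over all genes was at -0.01, 0.01 and 0.00. All 3 comparisons at 7 days use the same vehicle libraries. Of the members only PSMB8, with the combination, was called with a change of at least 2-fold, where 4.55% of all genes were such calls upward and 4% downward. No member was so called with VIC-1911 (3.46% of genes upward, 3.43% downward) or olaparib (3.63% and 3.53%), nor past 1.5-fold after 2 days (0.825% and 1.33%).

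**Figure D2:**
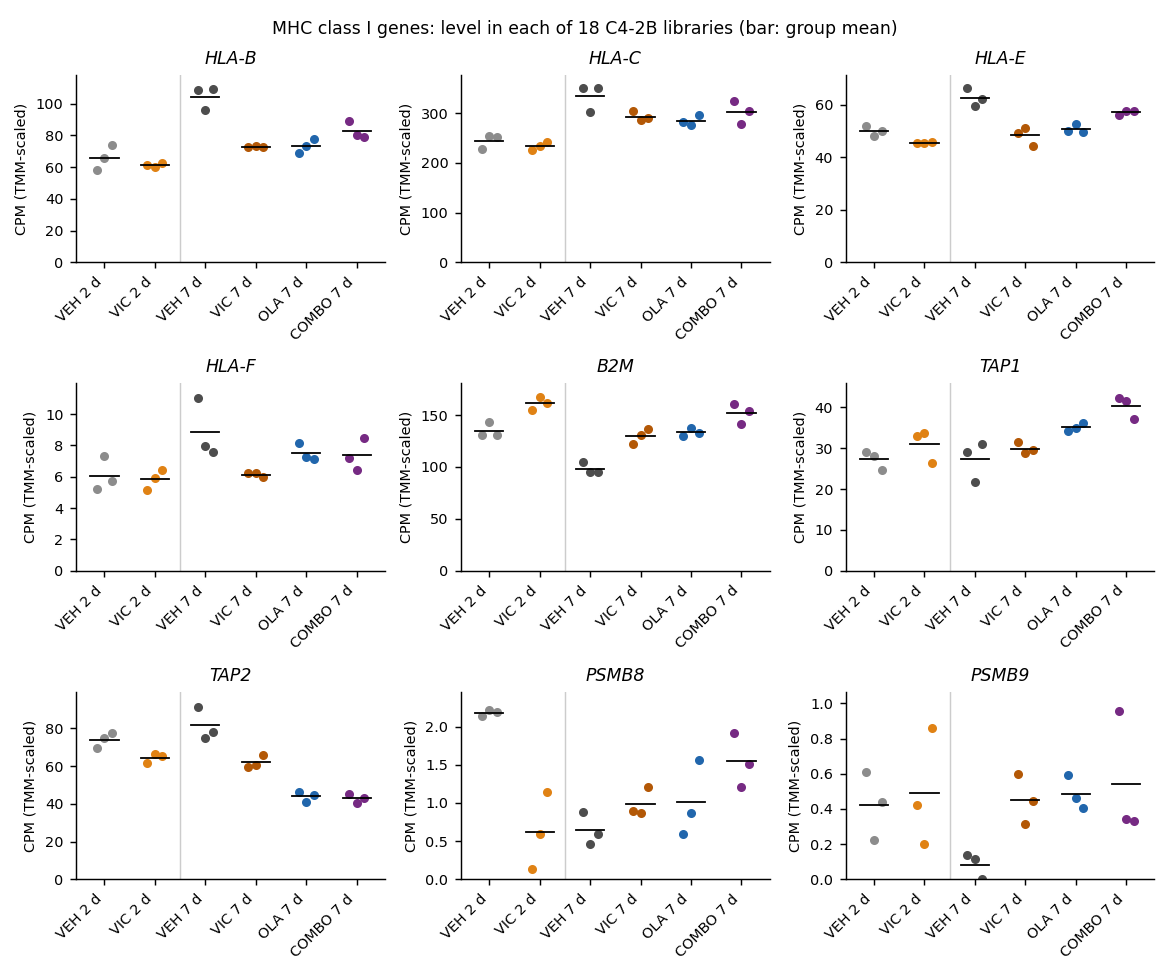
TMM-scaled CPM of the 9 genes (1 panel each, axis from 0) in every library, by group, with the group mean as a bar; the grey line separates the 2-day from the 7-day table. In the 7-day panels the vehicle libraries lie above all treated libraries for HLA-B, HLA-E and TAP2 and below them for B2M.

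HLA-B, a classical heavy chain that presents peptides to CD8 T cells, fell with every 7-day treatment. Its levels were 108, 96.0 and 109 CPM in the vehicle libraries, 72.8, 73.4 and 72.5 with VIC-1911, 68.6, 73.3 and 77.9 with olaparib and 89.2, 79.9 and 78.7 with the combination. All treated libraries lay below all vehicle libraries, and the 3 VIC-1911 libraries were nearly alike. The log2 fold change was -0.51 ± 0.0605 (SE) with VIC-1911 (edgeR, adjusted p = 3.04e-08), -0.49 ± 0.0608 with olaparib (edgeR, adjusted p = 7.64e-08) and -0.33 ± 0.0591 with the combination (edgeR, adjusted p = 2.4e-05). After 2 days the vehicle libraries, at 58.1, 65.6 and 73.6 CPM, overlapped the VIC-1911 libraries at 61.2, 59.8 and 62.8, and the change of -0.11 ± 0.0756 did not pass (edgeR, adjusted p = 0.345). The VIC-1911 effect at 7 days was lower than that at 2 days by -0.41 ± 0.102 on the log2 scale (edgeR test of the difference, adjusted p = 0.00205).

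HLA-C, the other classical heavy chain and the most abundant member per kilobase, moved less. The vehicle libraries had 350, 303 and 350 CPM after 7 days, against 304, 287 and 290 with VIC-1911, 283, 276 and 296 with olaparib and 325, 278 and 304 with the combination. One vehicle library lay among the treated values of VIC-1911 and the combination, and the olaparib libraries lay below all vehicle libraries. HLA-C fell by 0.19 with VIC-1911 (95% interval -0.294 to -0.0784, edgeR, adjusted p = 0.00538), by 0.23 with olaparib (-0.336 to -0.119, edgeR, adjusted p = 0.000965) and by 0.14 with the combination (-0.248 to -0.0335, edgeR, adjusted p = 0.0295), all on the log2 scale. The call with VIC-1911 was lost with limma on FPKM (adjusted p = 0.1 and 0.099). The call with the combination was lost without vehicle library 1 (-0.11), vehicle library 3 (-0.12), combination library 2 (-0.08) or combination library 3 (-0.14) and under 5 of 8 other settings, with adjusted p between 0.0074 and 0.159 over the 8. After 2 days HLA-C changed by -0.07 ± 0.0514 (edgeR, adjusted p = 0.411), from 228, 255 and 252 CPM to 225, 234 and 243.

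HLA-E, a non-classical heavy chain that presents leader peptides of other class I molecules to NKG2 receptors, had 66.5, 59.7 and 62.3 CPM in the vehicle libraries. With VIC-1911 the values were 49.5, 51.2 and 44.5, with olaparib 50.2, 52.6 and 49.7, and with the combination 56.3, 57.9 and 57.5. Every treated library lay below every vehicle library, and the combination lay between the single drugs and the vehicle. HLA-E fell by 0.38 ± 0.0629 with VIC-1911 (edgeR, adjusted p = 7.76e-06) and by 0.30 ± 0.0628 with olaparib (edgeR, adjusted p = 0.000171), on the log2 scale. With the combination the change of -0.13 ± 0.0608 did not pass (edgeR, adjusted p = 0.0609), but passed without vehicle library 2 (-0.19, adjusted p = 0.0189). After 2 days the 3 VIC-1911 libraries (45.5, 45.5 and 45.8 CPM) lay below the vehicle (52.0, 48.3 and 49.9), with a change of -0.13 ± 0.0787 that did not pass (edgeR, adjusted p = 0.296).

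HLA-F, a non-classical heavy chain expressed at a low level here, had 11, 7.98 and 7.58 CPM in the 7-day vehicle libraries, from 51 to 162 counts each. With VIC-1911 it had 6.21, 6.25 and 5.95, with olaparib 8.13, 7.24 and 7.1 and with the combination 7.22, 6.46 and 8.5 CPM. The first vehicle library stood above all others, and only the VIC-1911 group lay clear of the vehicle. HLA-F fell by 0.56 ± 0.15 with VIC-1911 (edgeR, adjusted p = 0.00231), a call that missed the threshold with limma on log2(FPKM + 0.1) (adjusted p = 0.0532). Its change was -0.30 ± 0.145 with olaparib (edgeR, adjusted p = 0.0794) and -0.28 ± 0.141 with the combination (edgeR, adjusted p = 0.0937). Both passed without vehicle library 2 (-0.43 and -0.41) or vehicle library 3 (-0.38 and -0.35), and the second also without combination library 3 (-0.39). After 2 days HLA-F had 17 to 45 counts per library and changed by -0.08 ± 0.218 (edgeR, adjusted p = 0.865), a value that turned positive without vehicle library 2 (0.09) or VIC-1911 library 1 (0.02).

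B2M, the light chain shared by these heavy chains, moved the other way in every comparison with vehicle. It had 105, 95.1 and 95.5 CPM in the 7-day vehicle libraries, 122, 131 and 136 with VIC-1911, 130, 138 and 133 with olaparib and 161, 141 and 154 with the combination. No treated library overlapped the vehicle, and all combination libraries lay above all single-drug libraries. The rise was 1.32-fold with VIC-1911 (log2 0.40 ± 0.056, edgeR, adjusted p = 5.82e-07), 1.36-fold with olaparib (0.44 ± 0.0563, edgeR, adjusted p = 1.13e-07) and 1.55-fold with the combination (0.63 ± 0.055, edgeR, adjusted p = 5.81e-11). B2M was already higher after 2 days of VIC-1911, at 155, 167 and 161 CPM against 131, 143 and 131 (1.19-fold, log2 0.25 ± 0.0562, edgeR, adjusted p = 0.00156). These 4 calls held under every setting tried and without any single library. The 2-day and 7-day effects of VIC-1911 differed by 0.14 (95% interval -0.0227 to 0.3, edgeR, adjusted p = 0.23).

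**Figure D3:**
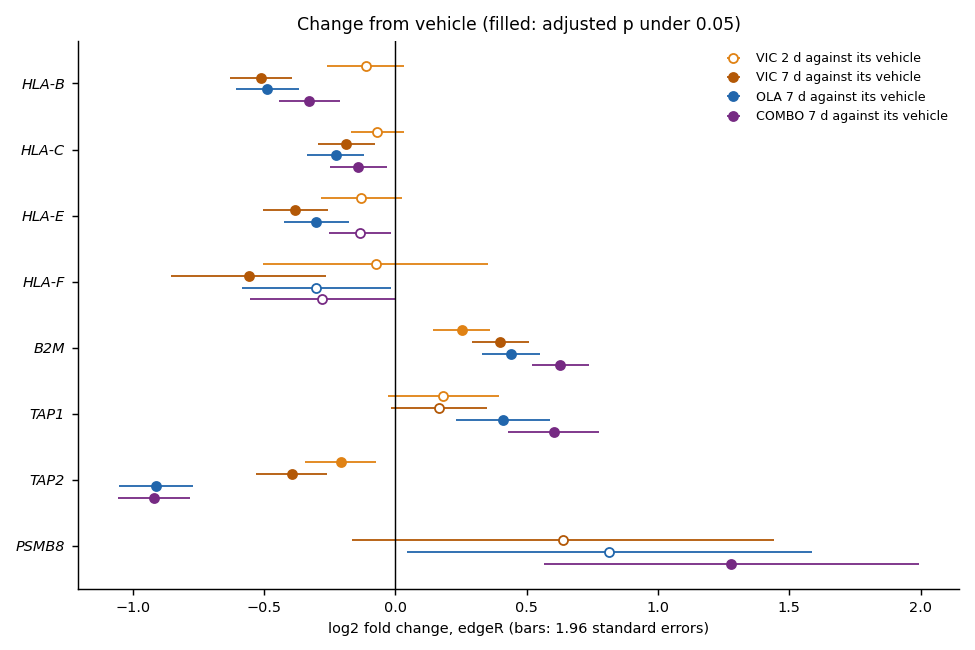
Log2 fold change against the vehicle of the same day for the 8 tested members, by edgeR, with bars for the 95% interval and filled points at an adjusted p under 0.05. PSMB8 was not tested after 2 days. Heavy chains and TAP2 lie left of 0, and B2M, TAP1 and PSMB8 lie right of it, with the intervals of several open points crossing 0.

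With heavy chains down and B2M up, the ratio of B2M to the summed heavy chains (HLA-B, HLA-C, HLA-E and HLA-F, counts per kilobase) was 0.331 ± 0.021 (SD, n = 3) in the 7-day vehicle, 0.528 with VIC-1911, 0.55 ± 0.0267 with olaparib and 0.582 ± 0.00835 with the combination. After 2 days it was 0.636 ± 0.0393 in the vehicle and 0.801 ± 0.0297 with VIC-1911. The treated libraries lay above the vehicle libraries in each of the 4 comparisons. Each two-sided exact permutation test gave p = 0.1, the smallest that 3 against 3 libraries allow, and 0.133 after adjustment over 24 ratio comparisons. The ratios were chosen after the values were seen, so these tests are no separate support. HLA-C made up 68.7% ± 0.547 of the summed heavy chains in the 7-day vehicle and 72.9% with VIC-1911, 71.8% ± 0.731 with olaparib and 70.7% ± 1.01 with the combination.

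The subunits of the peptide transporter moved in opposite directions. TAP1 had 29.2, 21.8 and 30.9 CPM in the 7-day vehicle libraries, 31.5, 28.7 and 29.5 with VIC-1911, 34.1, 35.0 and 36.1 with olaparib and 42.3, 41.5 and 37.2 with the combination. The olaparib and combination libraries lay above the vehicle, whereas the VIC-1911 libraries overlapped it. TAP1 rose 1.33-fold with olaparib (log2 0.41 ± 0.0922, edgeR, adjusted p = 0.000412) and 1.52-fold with the combination (0.60 ± 0.0891, edgeR, adjusted p = 1.24e-06). With VIC-1911 the change was 0.17 ± 0.094 (edgeR, adjusted p = 0.141), and it was -0.02 without vehicle library 2, the lowest of its group. After 2 days TAP1 went from 29.0, 28.1 and 24.6 CPM to 32.9, 33.6 and 26.3, a change of 0.18 ± 0.108 that did not pass (edgeR, adjusted p = 0.284).

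TAP2, the partner subunit without which TAP1 forms no working transporter, had the largest fall among the members with olaparib and with the combination. Its levels were 91.3, 75.1 and 78.3 CPM in the 7-day vehicle, 59.5, 60.6 and 65.8 with VIC-1911, 46.4, 40.9 and 44.5 with olaparib and 45.4, 40.4 and 43.3 with the combination. No treated library overlapped the vehicle, and the olaparib and combination libraries interleaved far below the VIC-1911 libraries. The log2 fold change was -0.40 ± 0.0683 with VIC-1911 (edgeR, adjusted p = 1.48e-05), -0.91 ± 0.0716 with olaparib (edgeR, adjusted p = 6.91e-12) and -0.92 ± 0.0698 with the combination (edgeR, adjusted p = 2.51e-12), and these 3 calls held under every setting tried. After 2 days the VIC-1911 libraries, at 61.9, 66.3 and 65.4 CPM, lay below the vehicle at 69.7, 74.7 and 77.8 (log2 -0.21 ± 0.0694, edgeR, adjusted p = 0.0361). That early call was lost without vehicle library 2 (-0.21) or 3 (-0.17) or without VIC-1911 library 1 (-0.17), 2 (-0.22) or 3 (-0.22), and with DESeq2 (adjusted p = 0.21), without a filter on counts (0.0662) and with limma on FPKM (0.31 and 0.35).

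Per kilobase, TAP1 stood at 0.703 ± 0.114 (SD, n = 3) of TAP2 in the 7-day vehicle, at 1.02 with VIC-1911, at 1.68 ± 0.128 with olaparib and at 1.97 ± 0.178 with the combination. The vehicle libraries were all below the libraries of each treatment. The two-sided exact permutation test gave p = 0.1 for each, the smallest that 3 against 3 libraries allow, and 0.133 after adjustment. This ratio was likewise chosen after the values of TAP1 and TAP2 were seen, so the test is no separate support. The ratio after 2 days was 0.778 ± 0.106 in the vehicle and 1.01 ± 0.144 with VIC-1911, and these groups overlapped (exact permutation p = 0.2, two-sided).

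PSMB8 and PSMB9, catalytic subunits that replace PSMB5 and PSMB6 in the immunoproteasome, were barely expressed. PSMB8 had 13, 8 and 4 counts in the 7-day vehicle libraries, 9, 11 and 19 with VIC-1911, 3, 15 and 31 with olaparib and 34, 14 and 23 with the combination. In CPM the combination libraries (1.92, 1.21 and 1.52) lay above the vehicle (0.883, 0.463 and 0.594), whereas both single-drug groups overlapped it. PSMB8 rose 2.43-fold with the combination (log2 1.28 ± 0.365, edgeR, adjusted p = 0.00367), a call that missed the threshold with limma on log2(FPKM + 1) (adjusted p = 0.17) and on log2(FPKM + 0.1) (adjusted p = 0.0677). The changes of 0.64 ± 0.41 with VIC-1911 (edgeR, adjusted p = 0.196) and 0.82 ± 0.394 with olaparib (edgeR, adjusted p = 0.0814) did not pass. That with olaparib passed without vehicle library 1 (1.17, adjusted p = 0.044) or olaparib library 2 (1.03, adjusted p = 0.0494).

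After 2 days PSMB8 was below the filter on counts and was not tested in that table, with 7, 10 and 10 counts in the vehicle libraries and 1, 3 and 8 with VIC-1911. It passed the filter of the joint fit of both days, in which its VIC-1911 effect was higher at 7 than at 2 days by 2.42 ± 0.673 (log2, edgeR test of the difference, adjusted p = 0.00546). The 2-day direction behind this value was downward and rests on 12 counts in the VIC-1911 group. PSMB9 passed no filter and was tested nowhere. It had 2, 2 and 0 counts in the 7-day vehicle libraries, 6, 4 and 7 with VIC-1911, 3, 8 and 8 with olaparib and 17, 4 and 5 with the combination. The vehicle CPM lay below those of each treatment (at most 0.136 against at least 0.316), at counts where the vehicle did not exceed 3 reads in any library, and after 2 days the groups overlapped (1 to 2 counts and 1 to 6).

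As a share of their constitutive counterparts per kilobase, PSMB8 was at most 1.84% of PSMB5 and PSMB9 at most 0.984% of PSMB6 in any library. PSMB8 stood at 1.8% ± 0.0691 of PSMB5 in the 2-day vehicle and at 0.473% ± 0.393 with VIC-1911, groups that did not overlap (exact permutation p = 0.1, two-sided). PSMB10, the third immunoproteasome subunit, was not scarce: it stood at 23% ± 0.564 of PSMB7 in the 7-day vehicle, 35.2% with VIC-1911, 40.8% ± 5.92 with olaparib and 43.8% ± 5.97 with the combination. Each treated group lay above the vehicle, with p = 0.1 in the two-sided exact permutation test. For PSMB10 and PSMB8 alike this is the smallest value that 3 against 3 libraries allow, and both ratios were chosen after their values were seen. After 2 days PSMB10 was at 34.4% ± 2.22 and 35.6% ± 4.86 (exact permutation p = 0.8, two-sided).

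**Figure D4:**
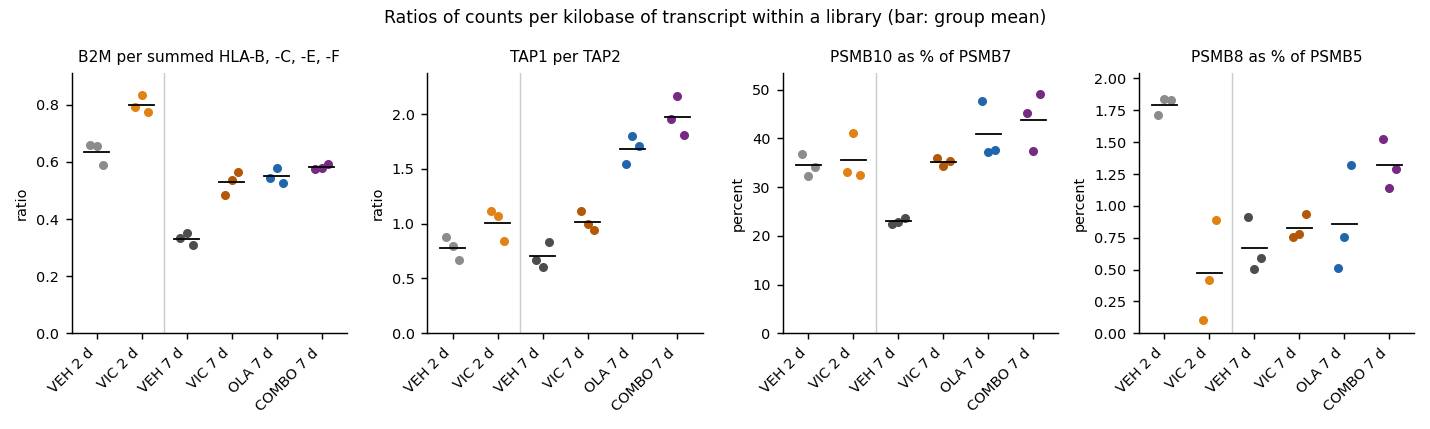
Ratios of counts per kilobase of transcript within each library (points, bar for the group mean, axes from 0), by group. At 7 days B2M per heavy chain, TAP1 per TAP2 and PSMB10 per PSMB7 lie higher in all treated libraries than in the vehicle, and PSMB8 stays under 2% of PSMB5.

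The combination was next set against each drug alone. Against olaparib, within one block of library names, B2M was the 1 member called higher (log2 0.19 ± 0.0539, edgeR, adjusted p = 0.0218), where 4.55% of all genes were called higher. No member was called lower by edgeR, DESeq2 or limma, where edgeR called 6.95% of all genes lower. The B2M call was lost without olaparib library 1 (0.17) or 3 (0.18), without combination library 1 (0.15) or 3 (0.18), and with limma (adjusted p = 0.0962 and 0.0985). HLA-B (0.16 ± 0.0608), HLA-E (0.17 ± 0.0621) and TAP1 (0.19 ± 0.0854) lay above olaparib in every combination library without passing (edgeR, adjusted p = 0.0888, 0.0815 and 0.156). TAP2 differed by -0.01 with a 95% interval of -0.155 to 0.138. No member was called past 2-fold against olaparib (0.291% of genes upward, 0.0902% downward).

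Against VIC-1911 alone, 4 members were higher and 1 lower, with 20.7% and 22.2% of all genes called. HLA-B was higher by 0.18 ± 0.0605 (edgeR, adjusted p = 0.0149), HLA-E by 0.25 ± 0.0622 (edgeR, adjusted p = 0.00189), B2M by 0.23 ± 0.0535 (edgeR, adjusted p = 0.000936) and TAP1 by 0.44 ± 0.087 (edgeR, adjusted p = 0.000158) on the log2 scale. TAP2 was lower by -0.52 ± 0.0712 (edgeR, adjusted p = 6.39e-07). The libraries of the combination and of VIC-1911 did not overlap in these 5 genes. They did not overlap either in HLA-F and PSMB8, which were higher without passing (edgeR, adjusted p = 0.135 and 0.12). The share of all genes without overlap was not computed. The HLA-B call was lost without combination library 1 (0.13, adjusted p = 0.109), and those of HLA-B and HLA-E with limma on FPKM (adjusted p = 0.0868 to 0.18). No member was called past 2-fold, as 2.23% of genes were upward and 1.82% downward.

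Whether the drugs added up was tested by the interaction, the VIC-1911 effect in the presence of olaparib less that in its absence, in which a constant difference between the blocks of library names cancels. It was positive for 5 members and negative for 1, with 21% and 22.9% of all genes called in these directions. HLA-B, HLA-C and HLA-E fell with either drug alone, and none of these was called lower with both drugs than with either one. HLA-B had an interaction of 0.67 ± 0.0858 (edgeR, adjusted p = 1.95e-07), since VIC-1911 changed it by -0.51 alone and by 0.16 on top of olaparib. HLA-E followed with 0.55 ± 0.0884 (edgeR, adjusted p = 8.46e-06), HLA-F with 0.58 ± 0.209 (edgeR, adjusted p = 0.0241) and HLA-C with 0.27 ± 0.0779 (edgeR, adjusted p = 0.00525). TAP2 also had a positive value, 0.39 ± 0.101 (edgeR, adjusted p = 0.00247). B2M rose with each drug and with both by less than the sum, with an interaction of -0.21 ± 0.0777 (edgeR, adjusted p = 0.0265). For TAP1 the value was 0.03 with a 95% interval of -0.222 to 0.276, and for PSMB8 it was -0.17 (-1.18 to 0.835).

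The interactions of HLA-F and B2M depended on single libraries. That of HLA-F was lost without vehicle library 1 (0.40), VIC-1911 library 3 (0.56), olaparib library 3 (0.55) or combination library 3 (0.47), and with DESeq2 (adjusted p = 0.06). That of B2M was lost without vehicle library 2 (-0.16) or 3 (-0.18), VIC-1911 library 3 (-0.18), olaparib library 2 (-0.19) or combination library 2 (-0.17), and with upper-quartile normalization (adjusted p = 0.0581). With limma on FPKM the calls of HLA-C, HLA-F and TAP2 were lost (adjusted p = 0.0949 to 0.217).

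Between the days, the VIC-1911 effect differed for HLA-B (lower at 7 days) and PSMB8 (higher), with 12.5% and 14% of all genes called in these directions. HLA-E (-0.26 ± 0.1, edgeR, adjusted p = 0.0508) missed the threshold, and passed without 7-day vehicle library 2 (-0.28) or 7-day VIC-1911 library 2 (-0.30). For TAP2 the difference was -0.20 with a 95% interval of -0.398 to 0.0063.

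The partners of these genes were read from lists of their pathway. Among 9 other class I and class I-like heavy chains, of which 6 were tested at 7 days, 4 were lower with VIC-1911 and 1 higher, 4 were lower with olaparib and 3 with the combination. Over all genes 25.7%, 25.9% and 28% were lower in these comparisons, and 26.7% were higher with VIC-1911. The median changes of these heavy chains in the 3 comparisons were -0.49, -0.45 and -0.20 on the log2 scale, against the medians near 0 over all genes given above. HFE, a heavy chain that pairs with B2M and regulates iron uptake, fell by 0.82, 1.34 and 1.53 with VIC-1911, olaparib and the combination, and by 0.80 after 2 days of VIC-1911. FCGRT, the heavy chain of the neonatal Fc receptor, fell at a low level (11 to 27 counts per vehicle library) by 1.73, 1.31 and 2.44. AZGP1, a secreted class I-like protein that needs no B2M, fell by 0.56 with VIC-1911 and by 0.43 with olaparib but changed by -0.01 with the combination. MICA, a ligand of the NKG2D receptor, rose by 0.21 with VIC-1911.

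Of 10 genes of peptide loading and trimming, all tested at 7 days, 5 were lower in each of the 3 comparisons, and 2 were higher with olaparib and 2 with the combination, with medians of -0.13, -0.15 and -0.18. Over all genes 25.7%, 25.9% and 28% were lower, and 28.1% and 28.6% were higher with olaparib and the combination. PDIA3, the oxidoreductase of the loading complex, fell by 0.43, 0.70 and 0.72 with VIC-1911, olaparib and the combination, and CANX, the chaperone calnexin, by 0.43, 0.55 and 0.65. TAPBP, which encodes tapasin and bridges TAP to the heavy chain, fell by 0.20 ± 0.0718 with VIC-1911 (edgeR, adjusted p = 0.0204). With the combination its change was -0.13 (edgeR, adjusted p = 0.12). TAPBPL, a tapasin-related editor, fell by 0.54 with VIC-1911 and by 0.46 with olaparib. The aminopeptidase LNPEP fell by 0.59 with the combination, NPEPPS rose by 0.17 and 0.19 with olaparib and the combination, and ERAP2, at 9 to 17 counts per vehicle library, rose by 0.92 and 0.89.

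Of 5 immunoproteasome partners, all tested, 4 were higher with VIC-1911, 4 with olaparib and 5 with the combination, where 26.7%, 28.1% and 28.6% of all genes were, with medians of 0.25, 0.33 and 0.28. PSMB10 rose by 0.70 ± 0.0971, 0.81 ± 0.0963 and 0.98 ± 0.093 with the 3 treatments, from 15 to 29.2 CPM on average between vehicle and combination. PSME2, a subunit of the PA28 activator, rose by 0.64 ± 0.0857, 0.87 ± 0.0846 and 0.93 ± 0.0826. PSME1, the other PA28 subunit, rose by 0.19 with the combination and had changes of 0.09 with VIC-1911 and 0.02 with olaparib that did not pass (edgeR, adjusted p = 0.23 and 0.834). PSME3, which forms a separate nuclear activator, rose by 0.25, 0.33 and 0.28. Of the constitutive subunits, PSMB5 rose by 0.32, 0.28 and 0.28, PSMB6 fell by 0.18 with olaparib, and PSMB7 had changes of 0.08, 0.03 and 0.03 that did not pass. After 2 days PSME3 (0.17) and POMP (0.15), a proteasome assembly factor, were the 2 partners called higher, where 7.5% of all genes were.

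**Figure D5:**
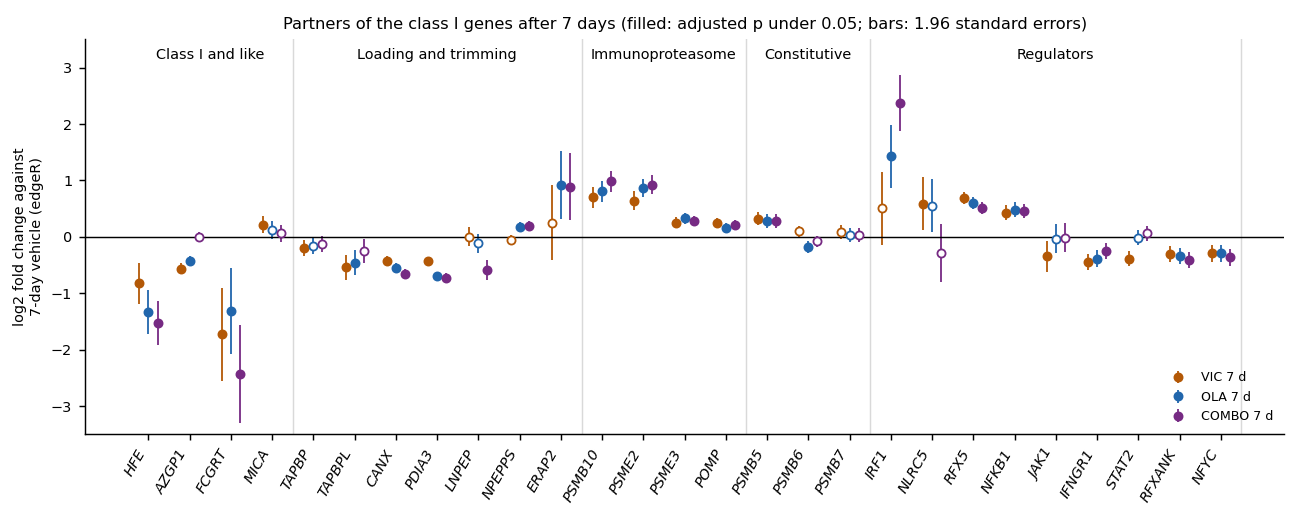
Log2 fold change against the 7-day vehicle (edgeR, bars for the 95% interval, filled at an adjusted p under 0.05) for partner genes of the class I pathway, grouped by role. PSMB10, PSME2 and, in olaparib and the combination, IRF1 lie above 0, and HFE, FCGRT, CANX and PDIA3 lie below it.

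Of 22 regulators, all tested, 7 were higher and 7 lower with VIC-1911, 9 and 5 with olaparib, and 9 and 3 with the combination, and their medians of 0.06, -0.01 and 0.03 lay near those of all genes. Over all genes 26.7% were higher and 25.7% lower with VIC-1911, 28.1% and 25.9% with olaparib, and 28.6% and 28% with the combination. IRF1, the interferon-induced activator of class I genes, was expressed at 5 to 21 counts per vehicle library and at 62 to 90 with the combination. It rose by 1.43 ± 0.288 with olaparib (edgeR, adjusted p = 0.000117) and by 2.38 ± 0.253 with the combination (edgeR, adjusted p = 3.12e-09), and the combination exceeded olaparib by 0.95 ± 0.207 (edgeR, adjusted p = 0.00229). With VIC-1911 alone the change was 0.50 ± 0.329 (edgeR, adjusted p = 0.202). RFX5, a DNA-binding factor of MHC promoters, rose by 0.69, 0.60 and 0.51 and NFKB1, an NF-kB subunit, by 0.43, 0.48 and 0.46 with the 3 treatments. IFNGR1, a chain of the interferon gamma receptor, fell by 0.45, 0.38 and 0.25, and RFXANK, a partner of RFX5, fell by 0.31, 0.34 and 0.41. NFYC fell by 0.29, 0.29 and 0.36, and STAT2 by 0.39 with VIC-1911.

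NLRC5, the class I transactivator, was near the lower limit of detection with 8 to 43 counts per vehicle library at 7 days. It rose by 0.59 ± 0.242 with VIC-1911 (edgeR, adjusted p = 0.0412), and its changes were 0.55 with olaparib and -0.28 with the combination, neither of which passed. The combination lay below olaparib by -0.84 ± 0.244 (edgeR, adjusted p = 0.0227). JAK1, a kinase of the interferon receptors, fell by 0.35 with VIC-1911 (edgeR, adjusted p = 0.0378). After 2 days 1 of the 22 regulators was called, IFNGR2, which rose by 0.44 ± 0.122 (edgeR, adjusted p = 0.0101). Over all genes 7.5% were called higher and 7.19% lower at that time.

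Class II genes, which serve presentation to CD4 T cells, were mostly silent: 3 of 14 were tested at 7 days. Of these 3, 1 was higher with VIC-1911, 2 with olaparib and 2 with the combination, and 0 were lower. Over all genes 26.7%, 28.1% and 28.6% were higher. HLA-DQB1 rose from 4 to 9 counts per vehicle library to 46 to 62 with the combination (log2 2.79 ± 0.308, edgeR, adjusted p = 6.55e-09). It also rose with VIC-1911 alone (1.42 ± 0.377, edgeR, adjusted p = 0.0021), and the combination exceeded olaparib by 0.86 ± 0.229 (edgeR, adjusted p = 0.0128). HLA-DMA rose by 0.73 with olaparib and by 0.73 with the combination. CIITA, the class II transactivator, had at most 4 counts in any library, and HLA-DRA at most 1.

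Across the 12 libraries of 7 days, HLA-B correlated with HLA-C (Pearson r = 0.869) and HLA-E (r = 0.861), B2M with TAP1 (r = 0.778) and PSMB8 (r = 0.8), and TAP2 ran against B2M (r = -0.824) and TAP1 (r = -0.778). These values describe libraries that share groups and depth, and they carry no test. The genes whose log2(CPM + 0.5) followed the mean profile of the 8 tested members most closely, among 9794 candidates with a mean of at least 10 CPM, were BSG (r = 0.901), RAB26 (r = 0.892), TMED3 (r = 0.872), LTBR (r = 0.869) and PPAPDC2 (r = 0.858). The mean profile was highest in the first vehicle library (0.20 log2 units above the mean of the libraries) and the first combination library (0.17 above), and rising and falling members offset each other in it.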

How the data were processed

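RNA-seq of 18 C4-2B libraries was used. Reads had been trimmed (Trimmomatic) and mapped to GRCh38 with STAR (2.6.0 per the submitters' processing notes), and the authors deposited the number of reads per gene as raw counts, 1 table for each time point. The authors also deposited FPKM values made with an in-house script, which served here for marker sums, for alternatives and for the check of gene lengths. The groups were taken from the sample titles, and all 36 columns of values were used.

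Models were made by edgeR 4.0.16 under R 4.3.3 from the counts (TMM, glmQLFit and glmQLFTest), with 1 fit for 2 days, 1 for 7 days (4 groups) and 1 for the difference between the days, for genes that reached 10 counts in 3 or more libraries (12241, 14409 and 14392 genes). Adjusted p-values are Benjamini-Hochberg values over all genes of a comparison, and 95% intervals are 1.96 standard errors to each side. Transcript lengths are those of MANE Select transcripts in the GENCODE annotation of hg38, gene positions and promoters are from RefSeq, and ratios were compared by exact permutation tests. A total of 8 comparisons was made. The members and the gene lists were chosen with earlier results of these data known. Named genes are all members, up to 3 genes called in each direction per list by adjusted p in each comparison with vehicle, the counterparts and regulators on which the members depend, and the 5 genes closest to the members' mean profile. HLA-DRA and CIITA, AZGP1 with the combination and the cell type markers were named after their values were seen, and so were the ratios chosen. Some genes of the lists are not reported here.

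Replicates differed by more than counting noise (chi-square per degree of freedom between 1.26 and 5.39). The biological coefficient of variation was 3.44% after 2 days and 4.43% after 7 days, and library totals, which set the precision, are given with the results. Alternatives were DESeq2 1.42.0, upper-quartile normalization, no scaling, no filter, the replicate number as a block, the compared groups alone, limma 3.58.1 on log2(FPKM + 1) and log2(FPKM + 0.1), and each library left out in turn. The code was tested on simulated data.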

Additional observations from a re-analysis of the deposited data

Results flagged for a closer look

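Differences between the effects of VIC-1911 in the presence and absence of olaparib, tested by edgeR as an interaction, were found for HLA-B (log2 0.67), HLA-F (0.58), HLA-E (0.55), TAP2 (0.39), HLA-C (0.27) and B2M (-0.21). The adjusted p-values by edgeR ran from 1.95e-07 for HLA-B to 0.0265 for B2M. The effects of VIC-1911 at 7 and 2 days differed for HLA-B (-0.41, edgeR, adjusted p = 0.00205) and for PSMB8 (2.42, edgeR, adjusted p = 0.00546). The PSMB8 value rests on 1 to 10 counts per library at 2 days. No group of 3 libraries can be examined for single outlying values.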

How the results depend on the processing

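The 2-day call counts were the least stable: of the members, 0 were lower with VIC-1911 by DESeq2 and by limma at either pseudocount, and 0 to 1 without 1 library. The counts of members after 7 days of VIC-1911 were 2 higher without a filter and 3 lower with limma on log2(FPKM + 0.1). With limma at either pseudocount 0 members were higher in the combination against olaparib (0 to 1 without 1 library), 2 in the combination against VIC-1911 and 2 in the interaction. Upper-quartile normalization left 0 members with a negative interaction (0 to 1 without 1 library), and limma on log2(FPKM + 1) left 0 members with a higher VIC-1911 effect at 7 days. Without 1 library, 2 to 5 members were lower with the combination and 1 to 2 had a lower VIC-1911 effect at 7 days. The cause was not tested. All other counts of members stayed within 1.5 times under every setting.

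Signs changed only for values that did not pass the test. In the combination against olaparib TAP2 was 0.0059 with upper-quartile normalization (-0.0621 to 0.0317 without 1 library), and HLA-F was -0.0118 and -0.0321 with limma at the larger and smaller pseudocount (-0.0874 to 0.0967 without 1 library). HLA-C in the combination against VIC-1911 was -0.0013 and -0.0015 with limma (-0.0044 to 0.101 without 1 library). The interaction of PSMB8 was 0.0107 and 0.0495 with limma (-0.52 to 0.337 without 1 library), and that of TAP1 was -0.00095 with limma at the smaller pseudocount (-0.0461 to 0.213 without 1 library). The difference of TAP1 between the days was 0.0212 without scaling and 0.0104 and 0.0287 with limma (-0.172 to 0.0653 without 1 library). Without 1 library, HLA-F after 2 days ran from -0.159 to 0.0872 and TAP1 with VIC-1911 at 7 days from -0.0202 to 0.238.

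Libraries with the same replicate number did not deviate together (r from -0.00097 to 0.045 at 2 days and from -0.0404 to 0.137 at 7 days, against -0.113 to 0.119 for other pairs at 7 days), so the numbers are not taken as pairs. With the replicate block all 16 counts of members stayed as they were, and HLA-F in the combination against olaparib was -0.0142.

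Over all genes, DESeq2 called 430 higher and 387 lower after 2 days, where edgeR called 918 and 880, and limma at the larger pseudocount called 353 and 705 for the combination against olaparib, where edgeR called 655 and 1002. Without olaparib library 3 this comparison had 334 and 669 genes, without combination library 3 it had 350 and 651, and without olaparib library 2 it had 382 and 659. No other scaling moved the share of higher calls by over 10 percentage points, but limma on log2(FPKM + 0.1) gave 2787 higher and 1513 lower for the difference between days, where edgeR gave 2020 and 1801. Depth limits PSMB8 and PSMB9 most, with at most 34 and 17 counts per library.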

Other observations

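Of the luminal markers used to check the cell type, FOLH1, which encodes PSMA, fell by 0.75, 1.00 and 1.19 with VIC-1911, olaparib and the combination on the log2 scale, and KLK3 by 0.61, 0.71 and 0.69 (edgeR, adjusted p of at most 6.64e-14 for KLK3). KRT8 rose by 0.42 with the combination and KRT18, which encodes its keratin partner, fell by 0.55, so the markers did not move as 1 group.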
